A study of Mus musculus with 24 samples.

Results

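Mouse germ cells arise from the epiblast in the embryo and can be induced from epiblast-like cells in culture. The arrays described here measured RNA at the start and the end of this step in both settings, and the change in culture was set against the change in the embryo. Of the 24 Affymetrix arrays of the series, 8 were chosen by their labels: those of PGCLCs, day 2 EpiLCs, E9.5 PGCs and epiblast that were labelled after PCR amplification, with 2 arrays per group. Primordial germ cell-like cells (PGCLCs) had been induced from epiblast-like cells (EpiLCs) 2 days after these were made from embryonic stem cells kept without feeder cells in 2i+LIF. Primordial germ cells (PGCs) came from embryos at embryonic day 9.5 (E9.5), and the epiblast from embryos between days 5.5 and 6. All cells were of strain C57BL/6, and each sample went through 22 PCR cycles from 5 ng of total RNA, the amount in 500 cells per the labels. The day of induction at which PGCLCs were taken and the way PGCLCs and PGCs were isolated are not given in these sources, so the 2 steps cannot be matched in time. The labels call the 2 arrays of a group biological replicates without saying whether each had its own culture or litter, and the p-values reflect only how far these arrays spread.

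In the mouse, bone morphogenetic protein signals make a few cells of the postimplantation epiblast turn on Prdm1, Prdm14 and Tfap2c, transcription factors that install the germ cell programme. The founders repress somatic genes, regain genes of naive pluripotency and lose DNA methylation while they migrate through the hindgut towards the gonads. Meiotic genes and many genes of gametogenesis follow only after the gonads are reached.

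Intensities are on the linear scale of the deposited table, in which the lowest value is 1, and log2 differences are given with their standard error for n = 2 arrays per group. Before log2 was taken, values below 4.2 were raised to that level. A gene was tested where at least 2 of the 12 amplified arrays exceeded 24.04, and a call of changed needed an adjusted p under 0.05 in limma together with a change of 2-fold or more, a log2 difference of 1. Where the group with the lower signal stayed under 24.04 on both arrays, the fold is given as "at least", relative to that level. Replicate arrays of the 4 groups correlated with r between 0.957 and 0.969, and array medians lay between 36.2 and 38.3. Signal from the 5′ end of beta-actin was 0.059 to 0.206 of that from its 3′ end, which is a measure of RNA and labelling length. Arrays with the same replicate number deviated together in all 6 pairs of groups (correlations of 0.292 to 0.587), so counts from a fit that blocks on replicate number are given where they differ by more than 1.5 times.

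Most genes called in one step moved in the same direction in the other. Of 15608 genes tested, 1010 rose and 975 fell in the culture step, PGCLCs minus day 2 EpiLCs (12.7% called, 6.47% higher and 6.25% lower). In the embryo step, E9.5 PGCs minus epiblast, 954 rose and 681 fell (10.5% called, 6.11% higher and 4.36% lower). The steps share no arrays. Both called 546 genes higher, which was 54.1% of the genes that rose in culture and 57.2% of those that rose in the embryo, and 427 genes lower, which was 43.8% and 62.7%. Of the genes that rose in culture, 93.2% had a positive log2 difference in the embryo, and of those that fell in culture, 92.3% had a negative one. Among genes called in the embryo, the shares with the same sign in culture were 91.4% for those that rose and 93.8% for those that fell.

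Across all tested genes the culture and embryo differences correlated with r = 0.704 and rho = 0.621, a description in which genes are not independent replicates. The same measure between the 2 replicate numbers was 0.80 (r) within culture and 0.845 within the embryo, and it was 0.604 to 0.676 when 1 culture number was set against 1 embryo number. The number of culture calls was 1170 without PGCLC array 1, 1013 without PGCLC array 2 and 1223 without EpiLC array 1, and that of embryo calls was 972 without PGC array 2, 821 without epiblast array 1 and 794 without epiblast array 2. The root mean square log2 difference was 1.07 in culture and 1.00 in the embryo. Leaving out 1 array left fewer calls, but in each such fit at least 317 of the 546 and 215 of the 427 shared genes were called again. The count of genes higher in both was 353 without PGCLC array 1, 353 without PGC array 1, 355 without epiblast array 1 and 322 without epiblast array 2. The count lower in both was 265 without PGCLC array 2, 232 without PGC array 2, 216 without epiblast array 1 and 232 without epiblast array 2.

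A gene that misses the threshold in 1 step need not differ between the steps, so the difference itself was tested as culture step minus embryo step. It was called for 80 of 15608 genes (0.513%), 30 with a higher (0.192%) and 50 with a lower culture step (0.32%). Of these, 34 changed in culture only, 25 in the embryo only and 12 in opposite directions, and 9 changed in both in the same direction by different amounts. The other genes called in just 1 step, 445 higher and 521 lower in culture and 383 higher and 242 lower in the embryo, had no called difference between the steps and are not assigned to either. With the replicate number as a block, 257 differences were called, with 102 genes in culture only, 78 in the embryo only and 27 in opposite directions. All 12 opposite genes, 31 of the 34 culture-only genes and 22 of the 25 embryo-only genes kept their class in that fit.

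These counts were the least stable. The count of 80 became 14, 12, 18, 34, 32, 14 and 12 when PGCLC 1, PGCLC 2, EpiLC 1, EpiLC 2, PGC 1, epiblast 1 and epiblast 2 were left out in turn, and 91 without PGC 2. In the same order the culture-only count of 34 became 9, 8, 10, 19, 16, 9 and 8, and the embryo-only count of 25 became 2, 1, 3, 5, 5, 0 and 1. The count of 12 opposite genes became 6, 7, 6, 7 and 6 without PGCLC 1, PGCLC 2, EpiLC 1, epiblast 1 and epiblast 2. With low values raised to the filter level, 10 of the 12 opposite, 24 of the 34 culture-only and 17 of the 25 embryo-only genes kept their class. In a fit of the 8 arrays alone, 11 opposite, 23 culture-only and 13 embryo-only genes kept it. With the probe sets of a gene averaged, 7 opposite, 18 culture-only and 17 embryo-only genes did. Of the named genes with a called difference, Srgn kept its call in all 17 alternative settings, and Calhm6, Lhx1, Fabp3, Ldha, Glrx and Vwa5a lost it in 1 setting each.

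**Figure D1:**
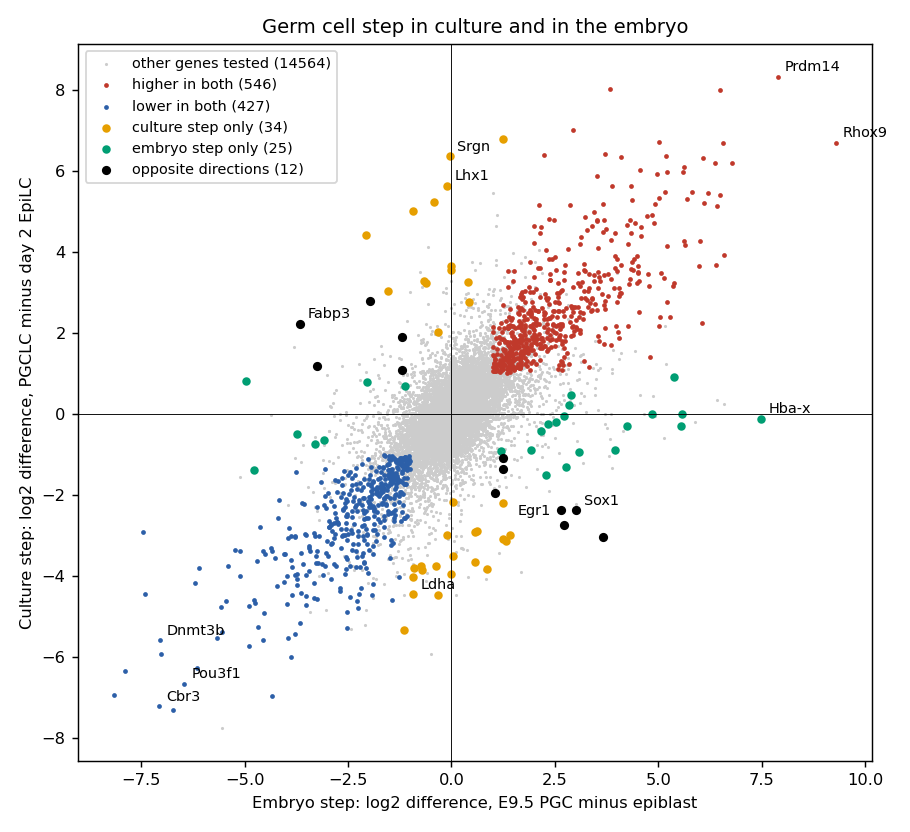
Log2 difference of each of 15608 genes in the embryo step (horizontal, E9.5 PGC minus epiblast) and the culture step (vertical, PGCLC minus day 2 EpiLC), coloured by class. The 546 genes higher in both lie at the upper right and the 427 lower in both at the lower left, while the 34 culture-only genes lie near the vertical axis, the 25 embryo-only genes near the horizontal one and the 12 opposite genes in the other 2 quadrants.

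Genes of germ cell specification rose together in both steps. Their list and the lists below were chosen with earlier results of these data known, so counts of members are a description and not a test. Of 17 tested members of this list, 15 rose and 1 fell in culture, and 13 rose and 0 fell in the embryo. The 13 were among the 15, and at an unadjusted limma p under 0.05 the embryo counts were 14 higher and 1 lower. The median log2 difference of the list was 3.28 in culture and 4.34 in the embryo, against -0.04 and 0.00 over all genes tested. Rhox5 and Stk31 were called higher in culture alone and Lin28a lower in culture alone, without a called difference between the steps. When any 1 array was left out, 13 or 14 members rose in culture and 13 in the embryo.

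Prdm14, a repressor of the somatic programme, had intensities of 1343 and 1582 in PGCLCs, against 3.6 and 4.94 in day 2 EpiLCs, and of 1154 and 1334 in E9.5 PGCs, against 1 and 6.53 in the epiblast. It was high on all 4 germ cell arrays and under the filter level on the 4 others, at least 60.6-fold higher in PGCLCs and at least 51.6-fold higher in PGCs. Its log2 difference was 8.32 ± 0.28 in culture (adjusted p = 1.17e-06) and 7.89 ± 0.28 in the embryo (adjusted p = 1.94e-06), and the difference between the steps was 0.43 ± 0.39 (adjusted p = 0.949). Prdm1, also known as Blimp1, had intensities of 1051 and 1099 in PGCLCs, against 22.1 and 43 in day 2 EpiLCs, and of 884 and 1191 in E9.5 PGCs, against 18.3 and 7.77 in the epiblast. Here too the germ cell arrays lay far above the others, with log2 differences of 5.12 ± 0.43 in culture and 6.43 ± 0.43 in the embryo. Tfap2c, which encodes AP-2 gamma, had intensities of 2560.5 and 2601 in PGCLCs, against 31.5 and 87.8 in day 2 EpiLCs, and of 2623 and 3649 in E9.5 PGCs, against 143 and 164 in the epiblast. Its 2 EpiLC arrays lay below both epiblast arrays, and the log2 difference was 5.62 ± 0.55 in culture and 4.34 ± 0.55 in the embryo.

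Dppa3, also known as Stella and a protein that guards against TET-driven demethylation in the egg, had intensities of 6479 and 7736 in PGCLCs, against 263 and 592 in day 2 EpiLCs, and of 7191 and 9022 in E9.5 PGCs, against 182 and 141 in the epiblast. The 4 germ cell arrays overlapped, and the log2 difference was 4.17 ± 0.36 in culture and 5.65 ± 0.36 in the embryo. Dnd1, an RNA-binding protein needed for germ cell survival, rose by 3.28 ± 0.27 in culture and 4.55 ± 0.27 in the embryo on the log2 scale. Kit, the receptor for stem cell factor that migrating germ cells depend on, rose by 4.38 ± 0.39 and 4.59 ± 0.39. The X-linked Rhox homeobox cluster was represented by Rhox6, at 5195 and 6887 in PGCLCs, against 34.5 and 192 in day 2 EpiLCs, and at 2632 and 2459.8 in E9.5 PGCs, against 38.7 and 24.4 in the epiblast, and by Rhox9. Rhox9 had intensities of 7063 and 7926 in PGCLCs, against 32.9 and 159 in day 2 EpiLCs, and of 3824 and 3609 in E9.5 PGCs, against 3.75 and 8.38 in the epiblast. In both Rhox genes EpiLC array 2 lay above EpiLC array 1, and neither group pair overlapped.

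Genes that act later in germ cells did not move as a group. Of 27 tested members of that list, 5 rose and 1 fell in culture, and 4 rose and 3 fell in the embryo, with medians of 0.37 and -0.02. Leaving out 1 array gave 3 to 6 higher in culture and 2 to 4 higher in the embryo, and 2 fell in culture with the block. On the unamplified arrays of the culture step, 2 members were called higher and 6 lower. Piwil2, Smc1b and Tdrkh rose in both steps and Sycp3 fell in both. The culture rise of Smc1b, a meiotic cohesin, depended on amplification, with a log2 difference of 4.46 ± 0.46 with it and 0.57 ± 0.37 without it (difference 3.89 ± 0.58, adjusted p = 0.00419). Tdrkh, a partner of PIWI proteins in piRNA processing, had intensities of 211 and 278 in PGCLCs, against 58.7 and 49.8 in day 2 EpiLCs, and of 161 and 181 in E9.5 PGCs, against 20.5 and 24.3 in the epiblast, so both germ cell groups lay above both starting groups. Sycp3, part of the lateral element of the synaptonemal complex, had intensities of 110.2 and 112 in PGCLCs, against 800.2 and 327 in day 2 EpiLCs, and of 90 and 75.7 in E9.5 PGCs, against 358 and 421 in the epiblast. Dazl, an RNA-binding protein that licenses gametogenesis, had intensities of 340.3 and 291 in PGCLCs, against 174 and 112 in day 2 EpiLCs, and of 47.4 and 5.15 in E9.5 PGCs, against 121 and 78.2 in the epiblast. It did not pass the test in either step, with log2 differences of 1.17 ± 0.79 in culture and -2.64 ± 0.79 in the embryo (adjusted p = 0.0619, and 0.0256 with the block). Ddx4, a germ cell helicase also known as Vasa, did not pass either, with log2 differences of 1.16 ± 0.63 and 0.10 ± 0.63. Mael, a piRNA pathway protein, fell in the embryo (-1.92 ± 0.31) and had a log2 difference of -1.04 ± 0.31 in culture (adjusted p = 0.0542, and 0.0378 with the block).

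**Figure D2:**
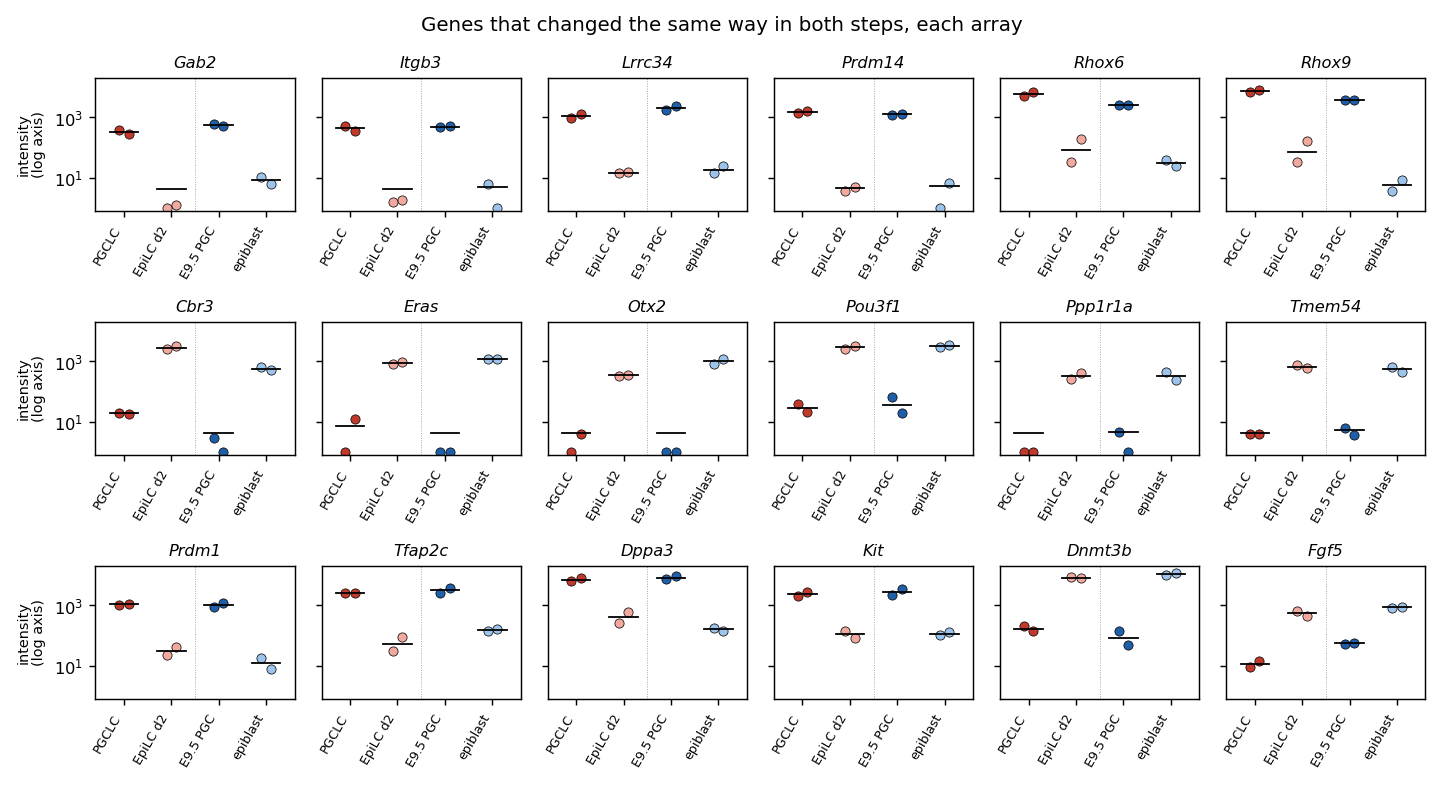
Intensity (log axis) of 18 genes on each of the 8 arrays, as points, with the mean of the 2 log2 values as a bar. Values are drawn as deposited, and the bar uses values raised to at least 4.2, so it lies above points near 1. PGCLCs stand left of day 2 EpiLCs and E9.5 PGCs left of the epiblast. Rhox9 and the other germ cell genes are high in PGCLCs and PGCs, and Dnmt3b and the other epiblast genes are high in EpiLCs and epiblast. The groups of a step do not overlap, which was a condition of choice for the genes drawn as the largest shared changes.

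Naive pluripotency genes also rose in both steps. Of 15 tested members, 10 rose and 1 fell in culture, 9 rose and 1 fell in the embryo, and 8 rose in both, with medians of 2.36 and 2.91. Klf2, a Krüppel-like factor of the naive network, had intensities of 1434 and 1077 in PGCLCs, against 62.4 and 107 in day 2 EpiLCs, and of 1489 and 899.6 in E9.5 PGCs, against 16.3 and 8.77 in the epiblast. Both epiblast arrays lay below both EpiLC arrays, and both steps were called, with a difference between the steps of -2.67 ± 0.83 (adjusted p = 0.27). Esrrb, an orphan nuclear receptor of the same network, had intensities of 2932 and 3733 in PGCLCs, against 44.9 and 322 in day 2 EpiLCs, and of 1871 and 2399 in E9.5 PGCs, against 171 and 156 in the epiblast. Its EpiLC arrays differed from each other more than the arrays of the other groups did, and the embryo call was lost without PGC array 2 (log2 difference 3.52) or epiblast array 2 (3.63). Nr5a2, another nuclear receptor, rose by 5.48 ± 0.41 in culture and 5.81 ± 0.41 in the embryo. Fgf4, a growth factor listed with this network, went the other way, with intensities of 11.6 and 27.6 in PGCLCs, against 828 and 1443 in day 2 EpiLCs, and of 1 and 1 in E9.5 PGCs, against 507 and 584 in the epiblast.

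The core pluripotency list was mixed, with 3 of 11 members higher and 2 lower in culture and 2 higher and 2 lower in the embryo. Pou5f1, the octamer factor OCT4, was high on all 8 arrays, with intensities of 5819.6 and 7064 in PGCLCs, against 5448 and 7012 in day 2 EpiLCs, and of 4829 and 7432 in E9.5 PGCs, against 5308 and 7640.2 in the epiblast. The groups overlapped and no change was detected, with log2 differences of 0.05 ± 0.26 and -0.09 ± 0.26. Sox2, its partner, had intensities of 3659 and 3454 in PGCLCs, against 607 and 1066 in day 2 EpiLCs, and of 4248 and 5331 in E9.5 PGCs, against 1376 and 1404 in the epiblast, so it was high throughout and higher in both germ cell groups. Nanog rose by 2.61 ± 0.35 in culture and by 1.69 ± 0.35 in the embryo, where the call was lost without either PGC or either epiblast array. Foxd3, a forkhead factor of pluripotent cells and neural crest, fell in both steps, with intensities of 8.1 and 7.6 in PGCLCs, against 234 and 194 in day 2 EpiLCs, and of 23.8 and 7.06 in E9.5 PGCs, against 821 and 469 in the epiblast.

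Genes of the postimplantation epiblast fell in both steps. Of 19 tested members, 16 fell in culture, 15 fell in the embryo, 14 fell in both and 0 rose in either, also at an unadjusted limma p under 0.05. The medians were -4.22 and -3.55. Members were chosen with earlier results of these data known, so their shared direction describes the list and is not a test. Leaving out 1 array gave 14 to 16 falling members in culture and 12 to 16 in the embryo. Otx2, a head organiser and epiblast factor, had intensities of 1 and 4.02 in PGCLCs, against 332 and 356 in day 2 EpiLCs, and of 1 and 1 in E9.5 PGCs, against 841 and 1183 in the epiblast. It was at least 14.3-fold lower in PGCLCs and at least 41.5-fold lower in PGCs. Pou3f1, the POU factor OCT6, had intensities of 38.1 and 21.4 in PGCLCs, against 2560.3 and 3236 in day 2 EpiLCs, and of 67.6 and 19.3 in E9.5 PGCs, against 3012 and 3382 in the epiblast, and its log2 differences were -6.65 ± 0.56 in culture and -6.47 ± 0.56 in the embryo. Fgf5, the classical marker of this stage, had intensities of 9.38 and 14.9 in PGCLCs, against 662 and 448 in day 2 EpiLCs, and of 52 and 57.1 in E9.5 PGCs, against 824 and 872 in the epiblast. The germ cell arrays lay below the starting arrays in both settings, and PGCLCs lay below PGCs by a log2 difference of -2.20 ± 0.30 (adjusted p = 0.00582). Its culture difference was -5.53 ± 0.30 with amplification and -7.52 ± 0.15 without it, a called dependence on amplification. Sfrp2, a secreted WNT modulator, was the member whose steps differed and is described with the culture-only genes.

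Within the machinery of DNA methylation, the de novo enzymes fell in both steps and the maintenance enzyme was not called. Of 13 members, 2 rose and 4 fell in culture, and 2 rose and 3 fell in the embryo. When 1 array was left out, 0 to 1 rose in each step. Dnmt3b, a de novo methyltransferase, had intensities of 198 and 140.5 in PGCLCs, against 8336 and 7772 in day 2 EpiLCs, and of 138 and 47.8 in E9.5 PGCs, against 10282 and 11309.9 in the epiblast. Dnmt3a, the other de novo enzyme, fell in both, with log2 differences of -4.22 in culture and -3.73 in the embryo and a difference between the steps of -0.50 ± 0.42 (adjusted p = 0.941). Dnmt3l, a cofactor without enzyme activity, had intensities of 70.7 and 34.2 in PGCLCs, against 979.9 and 1168 in day 2 EpiLCs, and of 1 and 1 in E9.5 PGCs, against 953 and 540.1 in the epiblast. It fell in both steps, with log2 differences of -4.44 in culture and -7.42 in the embryo. The difference between the steps was 2.97 ± 0.53 (adjusted p = 0.0477), and both PGC arrays were at the lowest value of the table. That call was lost in 12 of 17 alternatives, and with values raised to the filter level the difference was 0.46 (adjusted p = 0.979). Dnmt1, the maintenance enzyme, had intensities of 2783 and 3297 in PGCLCs, against 1765 and 1822 in day 2 EpiLCs, and of 2834 and 3179 in E9.5 PGCs, against 1846 and 1908 in the epiblast. Its germ cell arrays lay above its starting arrays in both settings, but the log2 differences of 0.76 ± 0.23 in culture and 0.68 ± 0.23 in the embryo stayed under the fold threshold. Uhrf1, which brings DNMT1 to replicating DNA, had intensities of 195 and 75.5 in PGCLCs, against 1445 and 485 in day 2 EpiLCs, and of 376 and 82.2 in E9.5 PGCs, against 1354 and 650.2 in the epiblast. It fell in culture, with a log2 difference of -2.79 (adjusted p = 0.0478), a call lost in 10 of 17 alternatives, and its log2 difference in the embryo was -2.42 ± 0.81 (adjusted p = 0.093, and 0.000915 with the block). Ehmt1, which methylates histone H3 at lysine 9 together with its partner, fell in the embryo (-1.83 ± 0.32) and had a log2 difference of -0.87 ± 0.32 in culture (adjusted p = 0.116).

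The largest shared changes outside these lists were in Gab2, Itgb3 and Lrrc34, which rose, and in Cbr3, Tmem54, Eras and Ppp1r1a, which fell. Gab2, a docking protein of receptor tyrosine kinases, had intensities of 383 and 289 in PGCLCs, against 1 and 1.27 in day 2 EpiLCs, and of 585 and 522 in E9.5 PGCs, against 11 and 6.05 in the epiblast. Itgb3, the integrin beta 3 chain, had intensities of 519 and 355 in PGCLCs, against 1.58 and 1.83 in day 2 EpiLCs, and of 483 and 499 in E9.5 PGCs, against 6.33 and 1 in the epiblast. Lrrc34, a leucine-rich repeat protein, had intensities of 922 and 1238 in PGCLCs, against 14.2 and 15.1 in day 2 EpiLCs, and of 1786 and 2333 in E9.5 PGCs, against 14.1 and 24.1 in the epiblast. In each of these the 4 germ cell arrays lay far above the 4 starting arrays. Cbr3, a carbonyl reductase, had intensities of 19.4 and 18.6 in PGCLCs, against 2488 and 3173 in day 2 EpiLCs, and of 3 and 1 in E9.5 PGCs, against 640.4 and 503 in the epiblast. All 4 of its germ cell arrays were under the filter level, and its EpiLC level lay above its epiblast level (2.31 ± 0.35, EpiLC minus epiblast). Eras, a Ras family GTPase of embryonic stem cells, had intensities of 1 and 12 in PGCLCs, against 801 and 945 in day 2 EpiLCs, and of 1 and 1 in E9.5 PGCs, against 1211 and 1173 in the epiblast.

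Promoters are shown for 1 gene of each of 4 classes, the gene with the largest change in its class that has an entry in the RefSeq promoter table (build GRCm38.p6): Lrrc34 (chr3:30647819-30648068, minus strand) for genes higher in both steps, Cbr3 (chr16:93682969-93683218, plus strand) for genes lower in both, Tinagl1 (chr4:130175123-130175372, minus strand) for genes higher in culture only, and Hba-x (chr11:32276350-32276599, plus strand) for genes higher in the embryo only. Each line gives the 250 bases before the annotated transcription start, 5′ to 3′ on the strand of the gene, and capitals mark a match to 1 of 5 motifs: CACGTG (E-box), GCGGGAA (E2F), GCCNNNGGC (AP-2), GAAAGTG (Prdm1) and TTTGCAT (octamer).
Lrrc34: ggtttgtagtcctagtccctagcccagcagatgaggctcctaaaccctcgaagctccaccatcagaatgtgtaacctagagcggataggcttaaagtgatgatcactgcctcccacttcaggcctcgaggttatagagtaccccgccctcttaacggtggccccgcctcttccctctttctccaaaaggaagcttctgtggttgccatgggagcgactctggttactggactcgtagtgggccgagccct
Cbr3: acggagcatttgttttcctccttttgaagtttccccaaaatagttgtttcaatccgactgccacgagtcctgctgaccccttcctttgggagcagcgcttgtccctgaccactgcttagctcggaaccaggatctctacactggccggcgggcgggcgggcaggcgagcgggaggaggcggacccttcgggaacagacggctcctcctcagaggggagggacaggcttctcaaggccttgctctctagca
Tinagl1: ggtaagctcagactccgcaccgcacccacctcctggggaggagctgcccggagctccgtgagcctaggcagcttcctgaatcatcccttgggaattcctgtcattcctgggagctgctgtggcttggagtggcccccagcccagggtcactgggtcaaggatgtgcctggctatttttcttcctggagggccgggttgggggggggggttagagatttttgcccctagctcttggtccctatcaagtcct
Hba-x: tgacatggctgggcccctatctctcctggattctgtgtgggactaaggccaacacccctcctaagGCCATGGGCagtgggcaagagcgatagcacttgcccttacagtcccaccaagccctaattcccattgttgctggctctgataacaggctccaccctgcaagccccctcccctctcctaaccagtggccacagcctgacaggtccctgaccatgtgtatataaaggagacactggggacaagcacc
The only match in these windows was an AP-2 motif in Hba-x. Over the full 300-base promoters, searched on both strands with each motif counted on its own, the AP-2 motif was in 28.0% of the 425 genes higher in both steps that had an entry and in 29.3% of the 317 lower in both, against 23.6% of 12489 tested genes. The E-box was in 10.6% and 6.62%, against 9.44%, and the Prdm1 motif in 4.47% and 5.36%, against 4.58%. A match is a description of these letters and not a binding site.

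Other functions moved in part. The shares to set beside the counts of these lists are those over all genes tested, 12.7% called in culture and 10.5% in the embryo. In the epithelial junction list 5 of 16 members fell and 1 rose in each step, and 4 fell in both. With the block 8 fell in culture, and without 1 array 3 to 5 fell in each step. Cldn6, a tight junction claudin of embryonic epithelia, had intensities of 96.8 and 112 in PGCLCs, against 1096 and 1385 in day 2 EpiLCs, and of 103 and 123 in E9.5 PGCs, against 1907 and 2492 in the epiblast. Ocln, which encodes occludin, had log2 differences of -4.71 in culture and -3.52 in the embryo. Dsp, the desmosomal plaque protein, rose instead, with intensities of 1133 and 1474 in PGCLCs, against 90.6 and 63.8 in day 2 EpiLCs, and of 1409.7 and 1959.8 in E9.5 PGCs, against 154 and 132 in the epiblast. In the list of migration and adhesion genes 5 of 18 rose and 4 fell in culture, and 2 rose and 4 fell in the embryo. Without 1 array, 2 to 6 rose and 2 to 4 fell in culture, and 2 to 4 fell in the embryo. Itga6 and Podxl fell in both, Podxl with intensities of 60.8 and 46.8 in PGCLCs, against 397 and 477 in day 2 EpiLCs, and of 131 and 54.6 in E9.5 PGCs, against 1129.9 and 1186 in the epiblast, and Itgb3 and Kit rose in both.

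Targets of BMP signals rose or did not pass, with 5 of 13 higher in culture, 3 of 13 higher in the embryo and 0 lower, also at an unadjusted limma p under 0.05. Gata2, a zinc finger factor of blood and trophoblast, had intensities of 876 and 887 in PGCLCs, against 13.2 and 8.95 in day 2 EpiLCs, and of 408 and 447 in E9.5 PGCs, against 26 and 23.6 in the epiblast, and rose by 6.34 ± 0.43 in culture and 4.11 ± 0.43 in the embryo. Msx2, a homeobox target of BMP, rose by 2.70 ± 0.29 and 3.48 ± 0.29. Id3, an inhibitor of helix-loop-helix factors, had intensities of 2046 and 2026 in PGCLCs, against 134 and 473 in day 2 EpiLCs, and of 1993 and 2092 in E9.5 PGCs, against 2119 and 2653 in the epiblast. It rose in culture (3.02 ± 0.46) and stood in the embryo at a high level at both ends, so the embryo difference was -0.22 ± 0.46, and the difference between the steps, 3.23 ± 0.65, missed the threshold (adjusted p = 0.0762) and passed it with the block (0.0369).

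Of 14 interferon and MHC genes, 5 fell and 1 rose in culture, and 4 fell and 0 rose in the embryo, the 4 being Gbp2, H2-D1, H2-K1 and Tap1 in both. At an unadjusted limma p under 0.05, 6 fell and 0 rose in the embryo. H2-K1, a class I heavy chain, had intensities of 206 and 252 in PGCLCs, against 1048 and 1316 in day 2 EpiLCs, and of 358 and 356 in E9.5 PGCs, against 889.7 and 936 in the epiblast. Leaving out any 1 PGC or epiblast array ended its embryo call, with log2 differences of -1.39 to -1.32. In such fits 2 to 4 members of the list fell in culture and 1 to 4 in the embryo. Its culture difference was -2.36 ± 0.26 with amplification and -0.43 ± 0.20 without it (difference -1.93 ± 0.34, adjusted p = 0.0109), and 1 member of the list was called higher and 2 lower on unamplified arrays. Of the imprinted genes, 4 of 17 were higher and 3 lower in culture and 7 higher and 1 lower in the embryo (2 to 5 and 1 to 3 in culture and 4 to 8 and 0 to 1 in the embryo without 1 array), and Igf2, Peg3, Plagl1 and Slc22a18 rose in both. Plagl1, a zinc finger factor expressed from the paternal allele, had intensities of 1530 and 2797 in PGCLCs, against 82.1 and 32.8 in day 2 EpiLCs, and of 1184 and 1025 in E9.5 PGCs, against 40.1 and 28.6 in the epiblast. Igf2, a fetal growth factor, had intensities of 967 and 783 in PGCLCs, against 33.6 and 37.2 in day 2 EpiLCs, and of 1492 and 600 in E9.5 PGCs, against 240.4 and 187 in the epiblast, so PGCLCs and PGCs overlapped and the EpiLC arrays lay below the epiblast arrays. The difference between the steps of Igf2 was 2.46 ± 0.55 (adjusted p = 0.0996, and 0.0369 with the block).

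**Figure D3:**
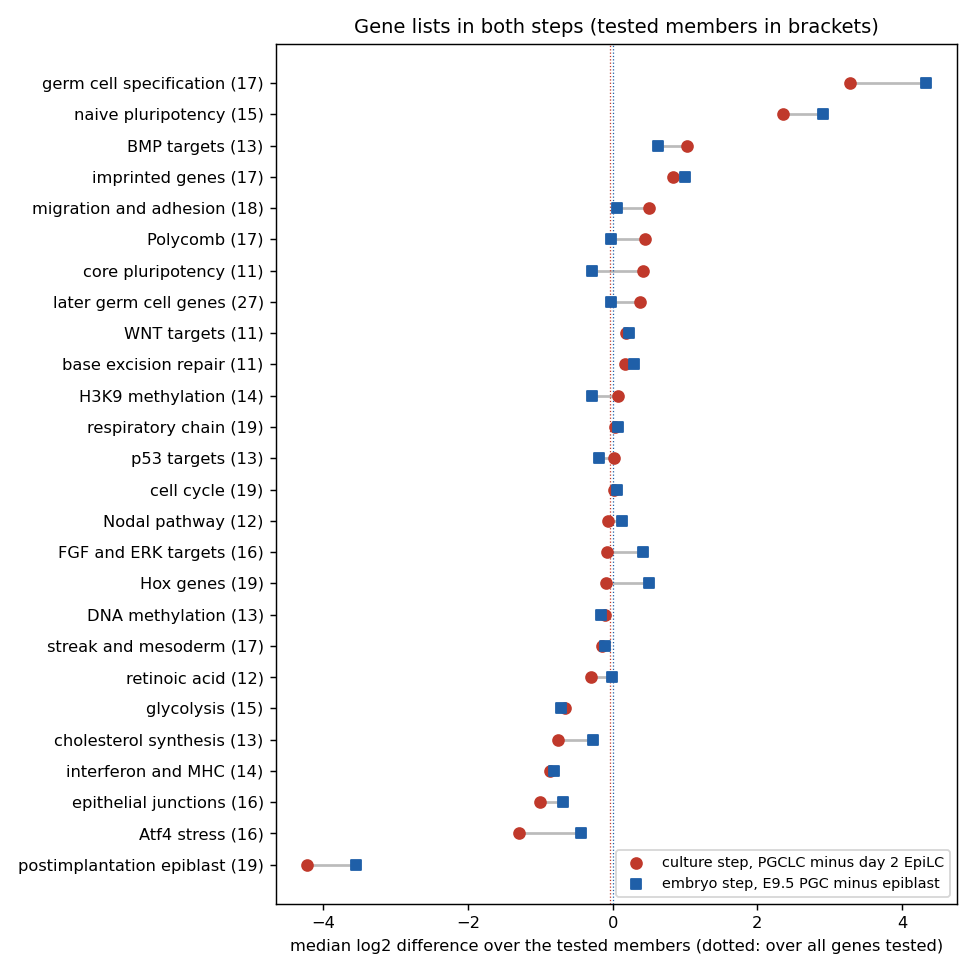
Median log2 difference over the tested members of 26 gene lists, as a circle for the culture step and a square for the embryo step, with the number of tested members in brackets and dotted lines at the medians over all genes. Germ cell specification (3.28 and 4.34) and naive pluripotency (2.36 and 2.91) lie at the right in both steps, and postimplantation epiblast (-4.22 and -3.55) at the left. Several lists have medians of opposite sign in culture and embryo, among them core pluripotency (0.42 and -0.29) and Hox (-0.09 and 0.50).

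In culture only, 14 genes rose and 20 fell. The 6 with the largest differences between the steps among those that rose were Tinagl1, Srgn, Lhx1, Glrx, Lcp1 and Bcl3. Srgn, a proteoglycan of secretory granules, had intensities of 349 and 337 in PGCLCs, against 2.62 and 1.42 in day 2 EpiLCs, and of 360.4 and 273 in E9.5 PGCs, against 453 and 229 in the epiblast. It was low on the EpiLC arrays alone, with a log2 difference of 6.35 ± 0.33 in culture, -0.04 ± 0.33 in the embryo and 6.39 ± 0.47 between the steps (adjusted p = 0.00206). Lhx1, a LIM homeobox factor of the primitive streak and its derivatives, had intensities of 229 and 189 in PGCLCs, against 3.22 and 2.67 in day 2 EpiLCs, and of 47.7 and 38.2 in E9.5 PGCs, against 44.5 and 47.7 in the epiblast. PGCLCs were the highest group and EpiLCs the lowest, while PGCs and epiblast overlapped, and the difference between the steps was 5.74 ± 0.58 (adjusted p = 0.00488). Glrx, the redox protein glutaredoxin, had intensities of 1002 and 1243 in PGCLCs, against 23.8 and 37.2 in day 2 EpiLCs, and of 498 and 571 in E9.5 PGCs, against 689 and 736 in the epiblast, so EpiLCs stood apart from the other 3 groups, and its difference was 5.65 ± 0.56.

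Lcp1, an actin-bundling protein, had intensities of 808 and 1049 in PGCLCs, against 5.56 and 12.7 in day 2 EpiLCs, and of 78.2 and 72.6 in E9.5 PGCs, against 42.6 and 23.6 in the epiblast. Tinagl1, a matrix protein related to tubulointerstitial nephritis antigen, had intensities of 470.4 and 389 in PGCLCs, against 10.2 and 40.1 in day 2 EpiLCs, and of 61.7 and 32.7 in E9.5 PGCs, against 222 and 159 in the epiblast. Its culture difference was 4.40 ± 0.80 and its embryo difference -2.06 ± 0.80 (adjusted p = 0.149), so the arrays of the embryo step also did not overlap, but in the other direction. Bcl3, a regulator of NF-kappaB, had intensities of 304 and 204 in PGCLCs, against 25.9 and 35.7 in day 2 EpiLCs, and of 4.48 and 1 in E9.5 PGCs, against 16.8 and 9.31 in the epiblast. It was above the filter level in culture and below it on all 4 embryo arrays, where its difference was -1.53 ± 0.47 (adjusted p = 0.0687, and 0.0264 with the block).

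Genes that fell in culture only included Neurod1, Macroh2a2, Celsr1, Atf3, Calhm6, Sfrp2, Sall1 and Ldha. Neurod1, a neuronal basic helix-loop-helix factor, had intensities of 7.03 and 9.1 in PGCLCs, against 145 and 90.5 in day 2 EpiLCs, and of 109.9 and 67.9 in E9.5 PGCs, against 57.8 and 39 in the epiblast. Celsr1, a cadherin of planar cell polarity, had intensities of 11.7 and 6.6 in PGCLCs, against 68.6 and 72.2 in day 2 EpiLCs, and of 123 and 71.8 in E9.5 PGCs, against 47.9 and 25.6 in the epiblast. Macroh2a2, a histone variant of repressed chromatin, had intensities of 26.6 and 29.7 in PGCLCs, against 269 and 231 in day 2 EpiLCs, and of 598 and 207 in E9.5 PGCs, against 178 and 111 in the epiblast. In all 3 the PGCLC arrays were the lowest, and both PGC arrays lay above both epiblast arrays. The difference between the steps was -4.70 ± 0.57 for Neurod1, -4.43 ± 0.63 for Celsr1 and -4.47 ± 0.65 for Macroh2a2. With the block the embryo rise was also called, for Celsr1 (1.43 ± 0.45, adjusted p = 0.0738 without and 0.00955 with the block) and for Macroh2a2 (1.32 ± 0.46, 0.106 and 0.0321).

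Sfrp2 had intensities of 8.59 and 8.35 in PGCLCs, against 289 and 122 in day 2 EpiLCs, and of 313 and 181 in E9.5 PGCs, against 311 and 287 in the epiblast, so the 2 embryo groups overlapped and PGCLCs were under the filter level. Sall1, a zinc finger partner of the pluripotency factors, had intensities of 51.7 and 75.8 in PGCLCs, against 972 and 785 in day 2 EpiLCs, and of 340.3 and 384 in E9.5 PGCs, against 628 and 739 in the epiblast. It had a log2 difference of -3.80 in culture, and its embryo difference of -0.91 ± 0.31 stayed under the fold threshold. Atf3, a stress-induced transcription factor, had intensities of 39 and 49.6 in PGCLCs, against 428 and 329 in day 2 EpiLCs, and of 26.6 and 18.7 in E9.5 PGCs, against 7.11 and 12.5 in the epiblast, so EpiLCs alone were high. Ldha, lactate dehydrogenase A, had intensities of 506 and 327 in PGCLCs, against 9513 and 8248 in day 2 EpiLCs, and of 5759.8 and 6363 in E9.5 PGCs, against 11006 and 11965 in the epiblast, and its embryo difference of -0.92 ± 0.22 passed the adjusted p (0.0241) but not the fold threshold. On the unamplified arrays of the same 2 cell types Ldha had 6763 and 4121 in PGCLCs, against 10322 and 9896 in day 2 EpiLCs, a log2 difference of -0.94 ± 0.16 that stayed under the fold threshold, so the size of its culture fall rests on the amplified arrays.

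**Figure D4:**
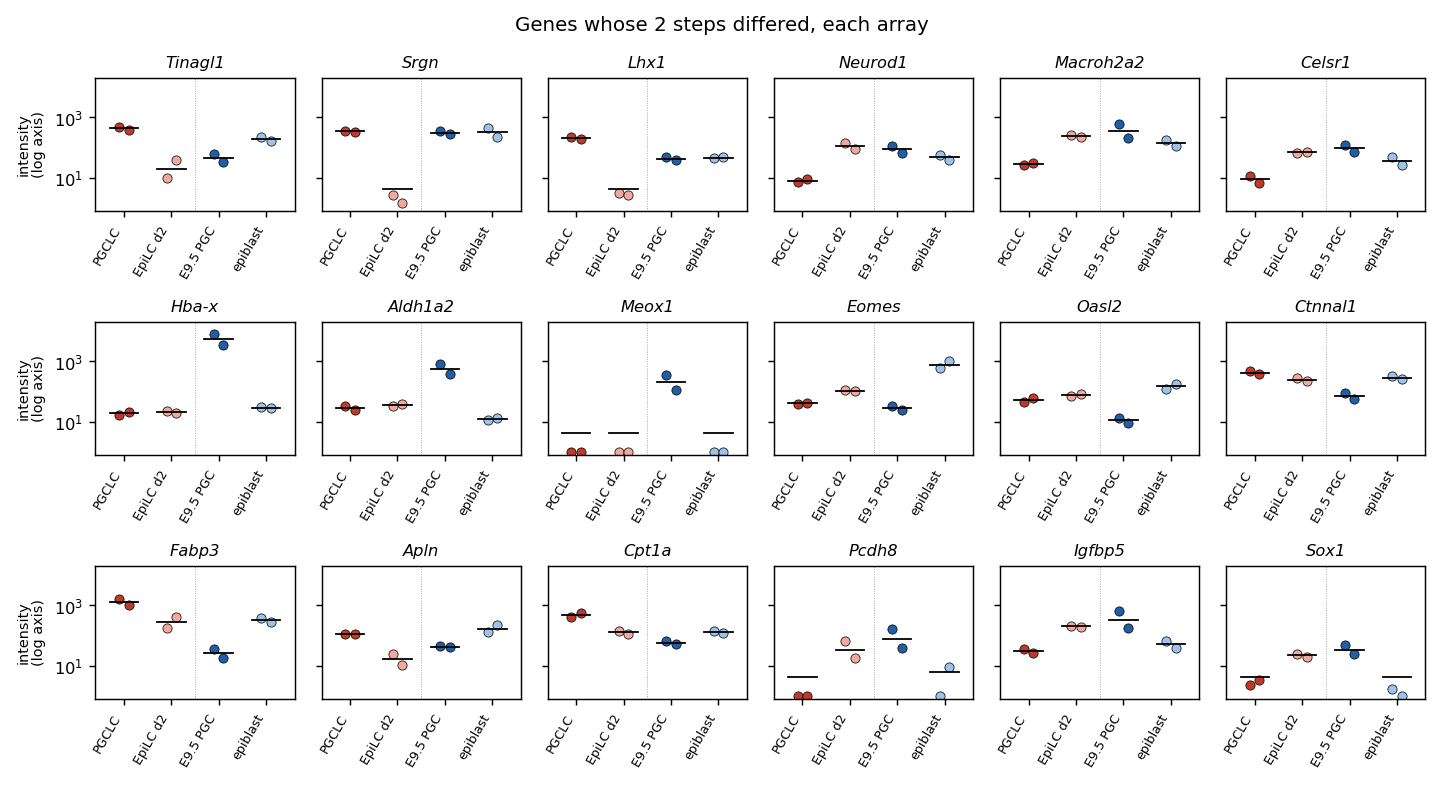
Intensity (log axis) of 18 genes whose steps differed, 3 for each class that changes in culture only, in the embryo only or in opposite directions, on each of the 8 arrays, with the mean of the 2 log2 values (raised to at least 4.2) as a bar. Srgn is low in day 2 EpiLCs alone, Hba-x and Meox1 are high in E9.5 PGCs alone and higher on array 1 than on array 2, and Fabp3 is highest in PGCLCs and lowest in PGCs.

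In the embryo only, 18 genes rose and 7 fell, and the largest difference was in a globin gene. Hba-x, the embryonic alpha-like globin of primitive red cells, had intensities of 17.1 and 21.4 in PGCLCs, against 22.1 and 19.6 in day 2 EpiLCs, and of 8258 and 3346 in E9.5 PGCs, against 30 and 28.3 in the epiblast. Aldh1a2, which makes retinoic acid in mesoderm, had intensities of 33.7 and 24.6 in PGCLCs, against 32.3 and 38.6 in day 2 EpiLCs, and of 797 and 389.6 in E9.5 PGCs, against 11.1 and 12.9 in the epiblast. Meox1, a homeobox factor of the somites, had intensities of 1 and 1 in PGCLCs, against 1 and 1 in day 2 EpiLCs, and of 354 and 113 in E9.5 PGCs, against 1 and 1 in the epiblast. PGC array 1 lay above PGC array 2 in each, and both were far above the 6 other arrays. Nr2f1 and S1pr3, an orphan nuclear receptor and a receptor for sphingosine 1-phosphate, showed the same order. Nr2f1 had 246 and 71.1 in E9.5 PGCs, against 1 and 4.97 in the epiblast, and S1pr3 had 138 and 45.9 in E9.5 PGCs, against 5.26 and 5.08 in the epiblast. Serinc5, a membrane protein, and Gadd45a, a p53 and stress target, also rose. Gadd45a had intensities of 620.2 and 585 in PGCLCs, against 431 and 447 in day 2 EpiLCs, and of 805 and 830.1 in E9.5 PGCs, against 115 and 105 in the epiblast, so its 2 PGC arrays lay close together and above the culture arrays.

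The summed intensity of 8 erythroid markers on the array was 11160 and 4029 in E9.5 PGCs, against 221 and 251 in the epiblast, and 201 to 349 on the 4 culture arrays. Of the 6 tested, 2 rose (Hba-x and Hbb-bh1) and 1 fell (Hbb-y) in the embryo, and none passed in culture by limma (2 were lower there at an unadjusted p under 0.05). Hbb-y, an embryonic beta globin, is uncertain: its chosen probe set read 1 on both PGC arrays and 38.6 and 32.8 in the epiblast, whereas its other 2 probe sets read 10060 and 4869, and 9877 and 4943, in PGCs, against 3.56 and 1, and 2.2 and 1.64, in the epiblast. The summed intensity of 15 mesenchyme markers was 2851 and 1233 in PGCs, against 556 and 571 in the epiblast, and 697 to 927 in culture. Of those 15, 7 rose and 1 fell in the embryo (2 fell with the block), and 3 rose and 2 fell in culture. Pdgfrb, a growth factor receptor of mesenchyme, had intensities of 30.4 and 37.2 in PGCLCs, against 39 and 15.5 in day 2 EpiLCs, and of 295 and 68.2 in E9.5 PGCs, against 1.04 and 5.6 in the epiblast. Its difference between the steps was -4.42 ± 0.97 (adjusted p = 0.0937, and 0.0417 with the block). When 1 array was left out, 4 to 7 mesenchyme markers rose in the embryo. In such samples fewer cells of a type and less RNA per cell cannot be told apart. The part of these markers in the embryo-only genes was not tested. The count of 25 embryo-only genes fell to 0 to 5 when any 1 array other than PGC array 2 was left out, and to 5 without PGC array 1.

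Genes lower in the embryo only included Eomes, Oasl2, Ctnnal1, Tmem45a, Etl4 and the chosen probe set of Hbb-y. Eomes, a T-box factor of the early streak and trophoblast, had intensities of 39.7 and 41.8 in PGCLCs, against 111 and 102 in day 2 EpiLCs, and of 32.2 and 24.5 in E9.5 PGCs, against 588 and 1006 in the epiblast. The epiblast stood above all other groups, and the embryo difference was -4.78 ± 0.42, against -1.39 ± 0.42 in culture (adjusted p = 0.0549, and 0.0367 with the block). Oasl2, an interferon-induced protein, had intensities of 44.8 and 63 in PGCLCs, against 70.2 and 80.7 in day 2 EpiLCs, and of 13.6 and 9 in E9.5 PGCs, against 123 and 177 in the epiblast. Ctnnal1, which encodes alpha-catulin, had intensities of 486 and 366 in PGCLCs, against 273 and 216 in day 2 EpiLCs, and of 87.5 and 55.4 in E9.5 PGCs, against 318 and 258 in the epiblast, with the PGC arrays below all the others. Visceral endoderm markers summed to 1881 and 2054 in PGCs, against 4525 and 1884 in the epiblast, so epiblast array 1 stood apart, and 3 of 14 (Apoa1, Cubn and Dab2) fell in the embryo while 1 rose in culture. Without 1 array 0 to 6 fell in the embryo, and the Cubn call was lost in 10 of 17 alternatives. Apoa1, an apolipoprotein, had 32.8 and 29.5 in E9.5 PGCs, against 612 and 93.8 in the epiblast.

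Changes in opposite directions were called for 12 genes, 5 higher and 7 lower in culture. Fabp3, a fatty acid-binding protein, had intensities of 1596 and 1001 in PGCLCs, against 182 and 402 in day 2 EpiLCs, and of 37.1 and 18.1 in E9.5 PGCs, against 393 and 269 in the epiblast. It was highest in PGCLCs and lowest in PGCs, with EpiLCs and epiblast overlapping in between, and the difference between the steps was 5.87 ± 0.64 (adjusted p = 0.00755). Cpt1a, which carries fatty acids into mitochondria, had intensities of 415 and 544 in PGCLCs, against 140 and 116 in day 2 EpiLCs, and of 63.7 and 50.4 in E9.5 PGCs, against 138 and 122 in the epiblast, and so followed the same order. Its culture rise was larger with amplification than without it, by 1.51 ± 0.28 on the log2 scale (adjusted p = 0.0173 in limma). Apln, the ligand apelin, had intensities of 110.4 and 113 in PGCLCs, against 25 and 10.6 in day 2 EpiLCs, and of 44.9 and 41 in E9.5 PGCs, against 130.5 and 218 in the epiblast. Vwa5a and Ddah1 also rose in culture (1.19 and 1.08) and fell in the embryo (-3.26 and -1.20), on the log2 scale. Their culture rises lay close to the fold threshold, and the call was lost in 6 of 17 alternatives for Vwa5a and in 5 for Ddah1. The called difference between the steps was lost in 1 alternative for Vwa5a and in 11 for Ddah1.

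In the other direction, Sox1, a neural progenitor factor, had intensities of 2.26 and 3.26 in PGCLCs, against 24.5 and 19.5 in day 2 EpiLCs, and of 49.2 and 23.6 in E9.5 PGCs, against 1.7 and 1 in the epiblast. Its arrays all lay below 50, at or near the filter level, and the difference between the steps was -5.40 ± 0.54. With values raised to the filter level its differences were -0.015 in culture, 0.52 in the embryo and -0.53 between the steps (adjusted p = 0.901), and averaging its probe sets also ended all 3 calls. Pcdh8, a protocadherin of paraxial mesoderm, had intensities of 1 and 1 in PGCLCs, against 64.5 and 18.1 in day 2 EpiLCs, and of 162 and 38.2 in E9.5 PGCs, against 1 and 9.29 in the epiblast. EpiLC array 2 of Pcdh8 was itself under the filter level. Its culture call was lost in 5 of 17 alternatives, with log2 differences of -3.94 to -0.71 over all of them. The called difference between its steps was lost in 12 of 17. Igfbp5, a carrier of insulin-like growth factors, had intensities of 36.2 and 25.9 in PGCLCs, against 213 and 195 in day 2 EpiLCs, and of 652 and 173 in E9.5 PGCs, against 64.4 and 39.6 in the epiblast, with PGC array 1 above all others. Egr1, an immediate early target of FGF and ERK signals, had intensities of 167 and 170.1 in PGCLCs, against 887 and 854 in day 2 EpiLCs, and of 133 and 124 in E9.5 PGCs, against 25.3 and 16.5 in the epiblast, and EpiLCs were the highest group and epiblast the lowest. On unamplified arrays Egr1 had 239.6 and 301 in PGCLCs, against 165 and 174 in day 2 EpiLCs, a log2 difference of 0.66 ± 0.12 in culture that was not called, so its fall in culture was seen with amplification alone. Pla2g4a, a phospholipase, had log2 differences of -1.09 in culture and 1.24 in the embryo, and Cdc42ep3, an effector of the GTPase CDC42, had -1.36 and 1.24. The embryo call of Cdc42ep3 was lost without any of 6 arrays (EpiLC, PGC and epiblast arrays 1 and 2), with log2 differences of 0.97 to 1.51.

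A further 9 genes changed in the same direction in both steps but by amounts that differed. Prkch, a protein kinase C, rose by 8.01 ± 0.48 in culture and 3.84 ± 0.48 in the embryo, with PGCLC intensities of 1074 and 1157 and PGC intensities of 88.1 and 134. Frem2 and Septin4 also rose more in culture, by 5.86 against 3.53 and by 4.80 against 2.36. Car12 and Morc1 rose more in the embryo, by 1.40 in culture against 4.81 in the embryo and by 3.15 against 5.36. Morc1, a silencer of transposons in the male germ line, had intensities of 2211 and 2382 in PGCLCs, against 199 and 334 in day 2 EpiLCs, and of 1229.6 and 1303 in E9.5 PGCs, against 29.1 and 32.8 in the epiblast, so its starting levels (3.06 ± 0.27, EpiLC minus epiblast) lay further apart than its germ cell levels (0.86 ± 0.27, PGCLC minus PGC). Adgra3, Dab1 and Ptprf fell more in culture, and Dnmt3l, given above, had the larger difference in the embryo only with PGC values under the filter level kept.

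In some lists the counts differed between the steps, without a test of the list as a whole. For these and the lists that follow, the shares over all genes tested were again 12.7% called in culture and 10.5% in the embryo. Of 19 tested Hox genes, 0 rose and 1 fell in culture, and 7 rose and 0 fell in the embryo (4 to 7 when 1 array was left out), and Hoxb9 was the member with a called difference between the steps (-4.47 ± 0.77, adjusted p = 0.0439). At an unadjusted limma p under 0.05, 1 rose and 1 fell in culture and 9 rose and 1 fell in the embryo, and with the block 1 rose in culture and 1 fell in the embryo. The 7 were Hoxb1, Hoxb2, Hoxb9, Hoxc4, Hoxc8, Hoxc10 and Hoxd8. Hoxb9, a trunk Hox gene, had intensities of 10.2 and 7.89 in PGCLCs, against 1.61 and 5.42 in day 2 EpiLCs, and of 332 and 118 in E9.5 PGCs, against 5.3 and 1 in the epiblast. Hoxb1, an anterior member that germ cells are known to repress, had intensities of 1.12 and 2.23 in PGCLCs, against 7.53 and 3.44 in day 2 EpiLCs, and of 119 and 51.2 in E9.5 PGCs, against 3.02 and 4.68 in the epiblast, and its difference of -4.56 ± 0.88 missed the threshold (adjusted p = 0.0654, and 0.0293 with the block). For both, PGC array 1 was above array 2, the order seen in the mesenchyme and erythroid sums, and the part of those in the Hox genes was not tested.

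Genes of the Atf4 stress response and amino acid supply numbered 7 lower and 0 higher of 16 in culture (4 to 7 lower when 1 array was left out), against 1 lower and 1 higher in the embryo (2 lower with the block). At an unadjusted limma p under 0.05, 9 fell and 0 rose in culture, against 3 lower and 3 higher in the embryo. The medians were -1.30 in culture and -0.44 in the embryo, and Atf3 alone had a called difference. Nupr1, a stress-induced chromatin protein, had intensities of 144 and 113 in PGCLCs, against 1087 and 2000.2 in day 2 EpiLCs, and of 1 and 1 in E9.5 PGCs, against 12.3 and 9.09 in the epiblast. Chac1, which degrades glutathione, had intensities of 161 and 158 in PGCLCs, against 1685 and 1466 in day 2 EpiLCs, and of 31.3 and 22.3 in E9.5 PGCs, against 45.4 and 62.1 in the epiblast. In both, EpiLCs were the highest group, PGCLCs were lower, and both embryo groups lay below PGCLCs. Their differences between the steps were -2.20 ± 0.54 (adjusted p = 0.143) and -2.30 ± 0.49 (adjusted p = 0.0911, and 0.0445 with the block). All 4 embryo arrays of Nupr1 were under the filter level. Phgdh, the first enzyme of serine synthesis, fell in both steps, with log2 differences of -2.86 and -1.85.

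Among 15 glycolysis genes, 2 rose and 5 fell in culture, and 0 rose and 3 fell in the embryo, with Slc2a1 and Tpi1 lower in both. At an unadjusted limma p under 0.05, 2 rose and 7 fell in the embryo, and with the block 1 rose and 5 fell there. On the unamplified arrays of the culture step, 2 were called higher and none lower, and the culture falls of Ldha and Pfkl depended on amplification by a called difference. Without 1 array, 0 to 2 rose in culture and 1 to 4 fell in the embryo. Hk1 and Pfkp were the 2 that rose in culture, a call that Pfkp lost in 11 of 17 alternatives. Hk1, a hexokinase, had intensities of 1789.7 and 1070.1 in PGCLCs, against 298 and 270.3 in day 2 EpiLCs, and of 699.6 and 468 in E9.5 PGCs, against 330.4 and 175 in the epiblast, and its embryo difference was 1.25 ± 0.44 (adjusted p = 0.111, and 0.00479 with the block). Of 17 streak and mesoderm genes, 3 rose and 2 fell in culture, and 2 rose and 4 fell in the embryo. Evx1, a posterior streak factor, rose in culture (3.04 ± 0.37) and had 140.5 and 149 in E9.5 PGCs, against 68.8 and 76.6 in the epiblast. Of 12 genes of the Nodal pathway, 1 rose and 1 fell in each step, and with the block 1 rose and 2 fell in culture and 2 rose and 2 fell in the embryo. Over all genes tested, 12.7% were called in culture and 10.5% in the embryo, so these counts are not read as a pathway change. Tdgf1, the Nodal co-receptor also known as Cripto, had intensities of 2107 and 1023 in PGCLCs, against 5027 and 3765 in day 2 EpiLCs, and of 212 and 47.2 in E9.5 PGCs, against 4132 and 2873 in the epiblast. It fell in the embryo (-5.11 ± 0.60), and its culture difference of -1.57 ± 0.60 did not pass (adjusted p = 0.124, and 0.03 with the block). The difference between the steps was 3.54 ± 0.85 (adjusted p = 0.125, and 0.0318 with the block). Of 13 p53 targets, 2 rose and 1 fell in culture, and 1 rose and 4 fell in the embryo. Pmaip1, the death gene Noxa, fell in both, with intensities of 558 and 339.7 in PGCLCs, against 3056 and 3515 in day 2 EpiLCs, and of 27.9 and 4.49 in E9.5 PGCs, against 2159 and 1793 in the epiblast. Its difference between the steps was 4.55 ± 0.94 (adjusted p = 0.0844, and 0.0307 with the block).

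In the retinoic acid list 0 of 12 rose and 2 fell in culture, and 2 rose and 2 fell in the embryo, and at an unadjusted limma p under 0.05 it was 0 and 4 in culture and 3 and 2 in the embryo. With the block 4 fell in culture. Cyp26a1, the enzyme that clears retinoic acid, had intensities of 1 and 3.03 in PGCLCs, against 4.35 and 1 in day 2 EpiLCs, and of 27.6 and 7.78 in E9.5 PGCs, against 373 and 247 in the epiblast, so the epiblast arrays alone were well above the filter level. Its difference between the steps was 4.35 ± 0.84 (adjusted p = 0.0654, and 0.0433 with the block). Crabp1, a retinoic acid-binding protein, had intensities of 114 and 77.7 in PGCLCs, against 317 and 149.8 in day 2 EpiLCs, and of 1433 and 624 in E9.5 PGCs, against 127 and 85.6 in the epiblast, so both PGC arrays lay above all others. Its difference between the steps was -4.39 ± 0.89 (adjusted p = 0.0762, and 0.00639 with the block), and its culture difference -1.21 ± 0.63 (adjusted p = 0.258, and 0.0339 with the block). Of the endothelial markers, 7 of 13 were higher and 0 lower in culture, and 3 were higher and 1 lower in the embryo (2 lower with the block), and none had a called difference between the steps (3 with the block). At an unadjusted limma p under 0.05, 8 were higher and 0 lower in culture. Their summed intensity was 3078 and 2727 in PGCLCs, against 1235 and 1694 in EpiLCs, and 1522 and 1107 in PGCs, against 1144 and 996 in the epiblast. Emcn, a sialomucin of venous endothelium, had intensities of 276 and 333 in PGCLCs, against 9.15 and 7.82 in day 2 EpiLCs, and of 55.1 and 26.2 in E9.5 PGCs, against 11.4 and 6.66 in the epiblast. Its difference between the steps was 3.04 ± 0.62 (adjusted p = 0.0802, and 0.044 with the block). The part of endothelial cells in the culture step was not tested.

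For the 80 genes whose steps differed, the difference could lie at the start (day 2 EpiLC minus epiblast) or at the end (PGCLC minus E9.5 PGC). Over all genes 150 (0.961%) were called at the start, 0.654% higher and 0.308% lower, and 452 (2.9%) at the end, 1.56% higher and 1.33% lower. Of the 80, 56 were called at the end alone, 19 at the start alone, 3 at both and 2 at neither, and the end difference was the larger in 58. These comparisons use the same arrays as the steps and are a description of them. Srgn (-6.26 ± 0.33 at the start, 0.13 ± 0.33 at the end), Glrx (-4.58 ± 0.40, 1.07 ± 0.40) and Egr1 (5.41 ± 0.43, 0.39 ± 0.43) differed at the start. Fabp3 (-0.26 ± 0.46, 5.61 ± 0.46), Ldha (-0.37 ± 0.22, -3.90 ± 0.22) and Hba-x (-0.49 ± 0.77, -8.10 ± 0.77) differed at the end. For Ldha and Egr1 these values hold for amplified arrays only. Their culture steps differed between amplified and unamplified arrays by -3.51 ± 0.28 and -3.03 ± 0.47 on the log2 scale, both called.

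**Figure D5:**
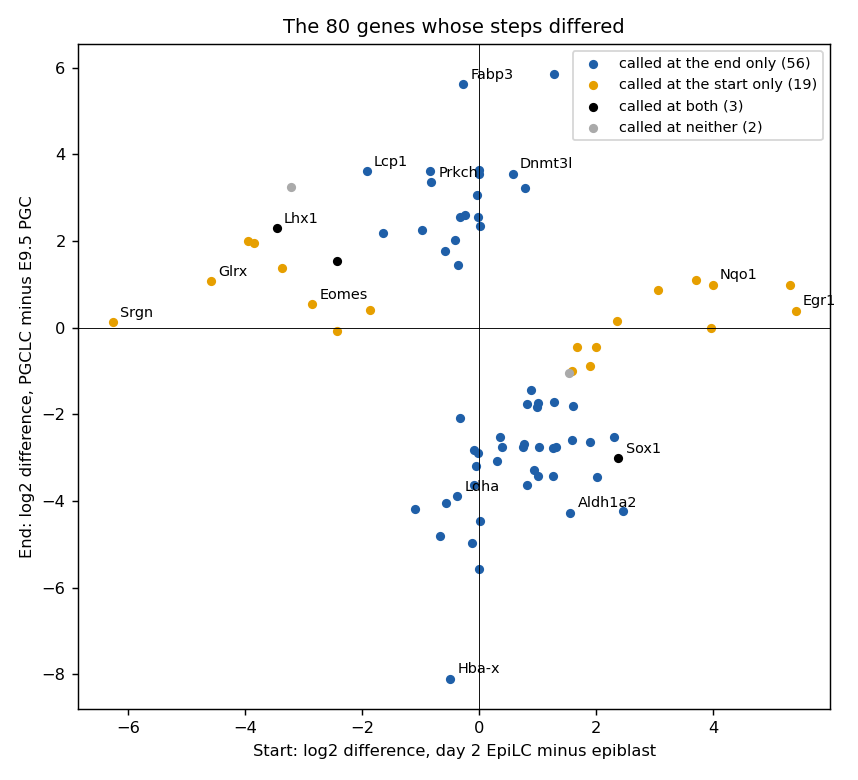
Log2 difference at the start (horizontal, day 2 EpiLC minus epiblast) and at the end (vertical, PGCLC minus E9.5 PGC) for the 80 genes whose steps differed, coloured by the comparison in which each was called. The 56 genes called at the end alone spread up and down near a start difference of 0, and the 19 called at the start alone, such as Srgn and Egr1, spread to the left and right near an end difference of 0.

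The culture step was measured again on 4 unamplified arrays, 2 of PGCLCs and 2 of day 2 EpiLCs, which the classes above did not use. Whether they carried the same RNA as the amplified arrays was not stated in the labels. Over all 14934 genes tested there, 20.6% were called, 8.78% higher and 11.9% lower. Of the 538 genes higher in both steps that were measured there, 535 had a positive difference and 449 were called higher. Of 422 lower in both, 419 had a negative difference and 367 were called lower. The 13 measured culture-only higher genes were all called higher, and 18 of the 20 culture-only lower genes were called lower. Of 15 genes higher in the embryo only, 9 had a positive and 6 a negative difference, with 1 called higher and 3 lower. Opposite genes had the sign of the amplified culture step in 5 of 5 and 6 of 7 genes, with 2 and 4 called. The culture differences of the 2 kinds of array correlated with r = 0.807 over 14553 genes, and the embryo step correlated with the unamplified culture step with r = 0.692.

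One fit over all 24 arrays asked whether the culture step depended on amplification. It called 123 of 14553 genes, and 11 of the 76 genes with a called difference between the steps, among them Ldha, Egr1, Cpt1a, Morc1, Prkch and Ptprf. Named genes outside the 80 that it called were Fgf5, H2-K1, Id1, Nnat, Pfkl and Smc1b. Prkch, for example, had a log2 difference of 8.01 ± 0.48 with amplification and 4.05 ± 0.30 without it. The embryo step was measured with amplification alone, so the same check is not possible there.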

How the data were processed

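RNA was measured on 24 Affymetrix arrays, and the report uses 8 of the 12 amplified arrays and, as a second measurement of culture, 4 unamplified ones. Per the labels' protocols, RNA was extracted with RNeasy and labelled by the one-cycle method. The deposited table holds 1 linear intensity for each of 45101 probe sets and array, and the software and normalization behind it are not stated in the labels used here. The number of arrays limits the precision.

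A single symbol was listed for 34958 probe sets, 932 had several and 9211 were unlisted, and only the first were used (34754 matched RefSeq, GRCm38.p6). Each gene is its probe set with the highest mean over 24 arrays (18193 genes). Values below the 10th percentile (4.2) were raised to it, and genes with at least 2 of 12 amplified arrays above the 40th percentile (24.04) were tested. All 12 amplified arrays entered a fit by limma 3.58.1 (R 4.3.3) that gave each group its own mean, with an intensity trend, 6 residual degrees of freedom and Benjamini-Hochberg adjustment over all genes, tested on simulated data. The difference between the steps was an interaction contrast.

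The named genes were, for each of 8 classes, the 6 with the largest change and no overlap between the arrays of a called step, at most 4 from any list in which 3 or more were called, and 28 preset germ cell and pluripotency genes, of which Nanos3 was not analysed here. Provisional names were passed over. The groups compared, the 26 function lists, the 8 marker lists and the named genes were chosen with earlier results of these data known. The pairing check used the correlation of residuals between arrays of the same replicate number, which exceeded 0.1 in all 15 pairs of the 12 amplified arrays. The pairing comes from the numbers in the labels, which coincide with a code in the array names. The alternatives tried were other floors, filters, scalings and probe set rules, the 8 arrays alone, the block, no trend, and leaving out arrays. A further 2 alternatives were added after seeing the data: leaving out both embryo arrays numbered 1, and the fit of all 24 arrays.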

Additional observations from a re-analysis of the deposited data

Results flagged for a closer look

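The steps differed in 80 genes by the test of the difference itself (culture step minus embryo step, log2, limma), and the named ones are given here with that difference, whose standard error lay between 0.299 and 1.13. Among genes that rose in culture only it was 6.46 for Tinagl1, 6.39 for Srgn, 5.74 for Lhx1, 5.65 for Glrx, 5.53 for Lcp1 and 4.56 for Bcl3. Among genes that fell in culture only it was -4.7 for Neurod1, -4.47 for Macroh2a2, -4.43 for Celsr1, -4.33 for Atf3, -4.22 for Calhm6, -4.14 for Sfrp2, -3.52 for Ldha and -2.89 for Sall1.

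Genes that rose in the embryo only had -7.61 for Hba-x, -5.84 for Aldh1a2, -5.57 for Meox1, -4.85 for Nr2f1, -4.83 for S1pr3, -4.54 for Serinc5, -4.47 for Hoxb9 and -2.43 for Gadd45a. Those that fell there only had 3.39 for Eomes, 3.23 for Oasl2, 2.84 for Ctnnal1, 2.55 for Tmem45a, 2.44 for the chosen probe set of Hbb-y (the other 2 of its probe sets rose in PGCs) and 1.82 for Etl4.

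Opposite changes gave 5.87 for Fabp3, 4.75 for Apln, 4.45 for Vwa5a, 3.09 for Cpt1a and 2.28 for Ddah1, and on the other side -6.68 for Pcdh8, -5.46 for Igfbp5, -5.4 for Sox1, -5.02 for Egr1, -2.59 for Cdc42ep3 and -2.34 for Pla2g4a. Changes in the same direction but of different size gave 4.17 for Prkch, 2.34 for Frem2, 2.44 for Septin4, -3.4 for Car12, -2.2 for Morc1, 2.97 for Dnmt3l, -2.74 for Adgra3, -3.16 for Dab1 and -1.77 for Ptprf.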

How the results depend on the processing

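The correlation of the steps and the calls of the unamplified culture step kept their size under every alternative run, while the counts that need a called difference between the steps did not. With the floor moved up to the 40th percentile, 136 differences were called, with 67 genes changed in culture only and 41 in the embryo only, and without a filter 15 genes changed in the embryo only. With the replicate block 257 differences were called, 27 genes had opposite directions, 102 changed in culture only and 78 in the embryo only, and it ended no call of a named gene. Leaving out 1 array gave 1013 to 1887 culture calls, 794 to 1518 embryo calls, 12 to 91 differences, 554 to 774 genes called in both in the same direction (322 to 423 higher and 216 to 421 lower), 6 to 13 in opposite directions, 8 to 45 in culture only and 0 to 27 in the embryo only, with fewer samples in each fit and the lone array assumed to vary like the other groups. Without both embryo arrays numbered 1, an alternative chosen after seeing the data, 453 embryo calls, 349 shared calls (176 higher and 173 lower), 4 opposite genes, 1 difference, 1 culture-only gene and 0 embryo-only genes were left by limma. Of 107 named culture calls 77 held in all 17 alternatives, as did 57 of 106 named embryo calls and 1 of 40 named differences. Hbb-y alone turned round among named genes: averaging its probe sets gave 6.11 in the embryo and -6.35 for the difference, and the higher floor gave -0.075 for the difference. Fold changes of genes near the floor are limited by signal over background.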

Other observations

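Several genes outside the naming rule, chosen here after their values were seen, were among the 80 whose steps differed. Bmp4, a ligand that induces germ cells in the embryo, had intensities of 346 and 405 in PGCLCs, against 41.4 and 35.7 in day 2 EpiLCs, and of 154 and 108 in E9.5 PGCs, against 235 and 179 in the epiblast, with a log2 difference of 3.28 ± 0.29 in culture and -0.67 ± 0.29 in the embryo. Nid1, a basement membrane protein, had intensities of 331 and 338 in PGCLCs, against 40.3 and 32.2 in day 2 EpiLCs, and of 122 and 44.1 in E9.5 PGCs, against 153 and 82.9 in the epiblast. Dll1, a Notch ligand of the presomitic mesoderm, had intensities of 76.9 and 82.4 in PGCLCs, against 136 and 163 in day 2 EpiLCs, and of 315 and 258 in E9.5 PGCs, against 74.2 and 75.1 in the epiblast. Nqo1, a quinone reductase induced by oxidative stress, had intensities of 356 and 269 in PGCLCs, against 1091 and 1306 in day 2 EpiLCs, and of 159.8 and 153 in E9.5 PGCs, against 75.1 and 74.5 in the epiblast. It fell in culture (-1.95 ± 0.24) and rose in the embryo (1.06 ± 0.24).

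Over all genes tested, 12.7% were called in culture and 10.5% in the embryo. Of the remaining lists, those of the cell cycle and of FGF and ERK targets lay above these shares in both steps. Cholesterol synthesis lay above the share in culture alone and WNT targets in the embryo alone. The Polycomb, base excision repair, H3K9 methylation and respiratory chain lists lay below both. Of 19 respiratory chain genes, 0 were called in either step. Among 17 Polycomb genes 1 rose in each step (Jarid2 in culture, where 2 rose with the block, and Bmi1 in the embryo), among 11 base excision repair genes 1 rose in culture (Smug1), and among 14 genes of H3K9 methylation 1 rose in culture (Kdm3b) and 1 fell in the embryo (Ehmt1), where 1 rose with the block. Of 19 cell cycle genes 2 rose and 2 fell in culture, and 1 rose and 2 fell in the embryo. Ccnd1, a G1 cyclin, fell in both (-3.79 ± 0.46 and -2.22 ± 0.46), and Ccnd3, a relative, rose in both (1.95 ± 0.29 and 1.66 ± 0.29). Of 13 cholesterol synthesis genes 3 fell in culture (Cyp51, Lss and Nsdhl). Of 11 WNT targets 1 rose in culture and 2 in the embryo. Of 16 FGF and ERK targets 2 rose and 2 fell in culture, and 4 rose and 1 fell in the embryo (with the block 4 rose in culture). Hand1, in the trophoblast marker list, read 12930 to 14500 on all 8 arrays, where the highest intensity of the table was 17519. Whether its probe set reports Hand1 alone was not tested.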
